A study of Homo sapiens with 18 samples.

Results

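The AP-1 family factors measured here were the FOS genes FOS, FOSB, FOSL1 and FOSL2, the JUN genes JUN, JUNB and JUND, the BATF genes BATF and BATF3, and ATF3. These 10 genes were taken by name from a table of read counts for 60707 genes in Raji, a human B cell line established from a Burkitt lymphoma. RNA was sequenced after removal of ribosomal RNA from cells with low GFP at 24, 48 and 72 h and from cells with high GFP at 24, 48 and 72 h, which makes 6 groups of 3 libraries, 18 in total. All 6 groups share the cell line and the genotype label Smarca4+/+, and the series describes a system in which auxin can trigger the breakdown of the SMARCA4 protein. SMARCA4, also called BRG1, is an ATPase of the BAF chromatin remodelling complexes. In the deposited table the columns of 1 library in each group carry a name that joins GFP and BRG1 (GFPBRG1), and those of the other libraries name GFP only. The sources used here do not spell out what the GFP signal reports, and do not give whether the line is 1 clone, which cells received auxin or the event from which the hours count. Groups are therefore named by GFP level, and which cells had lost the protein is not known here.

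On hg38, the build of the deposited table, the JUN genes lay on chromosomes 1 and 19: JUN (ENSG00000177606.8) at chr1:58776845-58784048 on the minus strand, JUNB (ENSG00000171223.6) at chr19:12791486-12793315 on the plus strand and JUND (ENSG00000130522.6) at chr19:18279694-18281622 on the minus strand. FOS and BATF lay on chromosome 14, with FOS (ENSG00000170345.10) at chr14:75278826-75282230 on the plus strand and BATF (ENSG00000156127.8) at chr14:75522455-75546993 on the plus strand, and ATF3 and BATF3 on chromosome 1, with ATF3 (ENSG00000162772.17) at chr1:212565334-212620777 on the plus strand and BATF3 (ENSG00000123685.9) at chr1:212686417-212699840 on the minus strand. The other FOS genes were FOSB (ENSG00000125740.14) at chr19:45467995-45475179 on the plus strand, FOSL1 (ENSG00000175592.9) at chr11:65892049-65900573 on the minus strand and FOSL2 (ENSG00000075426.12) at chr2:28392448-28417317 on the plus strand. Values are counts over the exons of each gene.

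AP-1 is a family of basic leucine zipper proteins that bind DNA as pairs. FOS proteins cannot pair with themselves and bind DNA with a JUN partner, whereas JUN proteins can pair with each other as well. BATF and BATF3 also pair with JUN proteins and, in lymphocytes, bind composite sites together with IRF4 or IRF8, while ATF3 is a stress-induced member that represses or activates depending on its partner. FOS, FOSB, JUN, JUNB and ATF3 belong to the early response genes, which are switched on within minutes of a signal such as engagement of the B cell receptor and whose transcripts are short-lived. BATF is required in mouse B cells for class switching of antibodies.

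The promoters are shown because the family is known to act on itself and on related sites. RefSeq promoter windows on GRCh38.p14, from 250 bases before to 50 bases after the start used there, were found for 8 of the 10 members, with 2 windows for ATF3, which makes 9 windows of 300 bases. These starts can differ from the gene coordinates given above. The FOSL2 window (chr2:28392608-28392907) and the second ATF3 window (chr1:212614768-212615067) lie wholly inside those coordinates. Both strands were searched for TGACTCA (the classical AP-1 site), TGACGTCA (the cyclic AMP response element), TGACATCA (the variant known from the JUN promoter) and TGACGT (the shortened response element, which overlaps TGACGTCA). The stretches around the matches are given 5′ to 3′ on the gene's strand, with the matched letters in capitals.
JUN (chr1:58784087-58784134, minus strand): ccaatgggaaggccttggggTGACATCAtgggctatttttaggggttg
ATF3 (chr1:212565264-212565311, plus strand): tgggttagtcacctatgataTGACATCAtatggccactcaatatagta
FOS (chr14:75278744-75278789, plus strand): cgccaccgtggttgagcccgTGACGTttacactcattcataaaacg
FOSB (chr19:45467916-45467961, plus strand): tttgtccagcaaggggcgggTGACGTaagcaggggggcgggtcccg
JUND (chr19:18281795-18281842, minus strand): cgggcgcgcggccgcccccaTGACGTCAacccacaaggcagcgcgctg
JUND (chr19:18281684-18281729, minus strand): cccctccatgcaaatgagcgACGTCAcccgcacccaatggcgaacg
FOSL2 (chr2:28392772-28392817, plus strand): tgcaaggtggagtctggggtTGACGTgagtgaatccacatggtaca
FOSL2 (chr2:28392842-28392888, plus strand): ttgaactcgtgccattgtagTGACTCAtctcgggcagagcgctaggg
TGACATCA lay at positions -67 to -60 of JUN and -123 to -116 of ATF3, and 2.61% of all 35116 promoter windows hold it. The variant was searched because it is known from JUN, so the match in JUN was known in advance. TGACGT began at -64 in FOS, -60 in FOSB and -66 in FOSL2, and 7.98% of windows hold it. JUND held TGACGTCA at -200 to -193, present in 1.85% of windows, and the shortened element again on the other strand at -87. TGACTCA was found in FOSL2 alone among the members, at positions 5 to 11 after the start, against 4.95% of all windows. At least 1 of these letter strings stood in 14.9% of all windows. The windows of JUNB and BATF and the second window of ATF3 held none of them, which says only that these letters are absent from these 300 bases. The FOS, JUND and BATF windows are given whole below, as the members on which most of the results turn.
FOS (chr14:75278578-75278877, plus strand): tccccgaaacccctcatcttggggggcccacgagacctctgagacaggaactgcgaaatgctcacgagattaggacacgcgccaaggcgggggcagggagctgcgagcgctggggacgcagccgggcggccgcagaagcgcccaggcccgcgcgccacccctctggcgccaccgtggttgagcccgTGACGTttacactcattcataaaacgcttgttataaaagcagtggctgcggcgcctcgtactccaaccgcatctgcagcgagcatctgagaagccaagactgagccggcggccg
JUND (chr19:18281573-18281872, minus strand): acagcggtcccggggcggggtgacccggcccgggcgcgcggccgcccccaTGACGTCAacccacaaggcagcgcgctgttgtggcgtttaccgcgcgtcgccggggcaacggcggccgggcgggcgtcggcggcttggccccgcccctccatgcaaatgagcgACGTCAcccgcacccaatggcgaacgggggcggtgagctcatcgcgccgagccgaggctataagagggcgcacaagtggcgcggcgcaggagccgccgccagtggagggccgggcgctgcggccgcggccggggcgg
BATF (chr14:75522219-75522518, plus strand): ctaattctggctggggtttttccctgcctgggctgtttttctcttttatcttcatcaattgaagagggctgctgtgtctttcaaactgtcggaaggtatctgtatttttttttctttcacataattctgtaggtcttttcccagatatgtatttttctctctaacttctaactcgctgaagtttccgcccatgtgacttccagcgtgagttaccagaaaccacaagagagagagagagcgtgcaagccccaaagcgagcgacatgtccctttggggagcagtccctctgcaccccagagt
JUND and JUNB had the most GC-rich windows, with 77.0% and 71.0% G or C, and BATF the lowest, with 46.0%, against a median of 58.7% over all windows. A match is a description of the letters and was not tied to any measured binding.

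Between 27257876 and 55419458 counts fell in genes per library, and tests covered the 16474 genes with enough counts. Libraries of each group come from 3 sets, an unnumbered set and sets 1 and 2, named in the deposited columns; values below are given in that order, in CPM, the level relative to a library's total counts in genes, scaled by the TMM method. Set 2 was the deepest in each group. Genes were called at a Benjamini-Hochberg adjusted p under 0.05 by the quasi-likelihood F test of edgeR over all tested genes. Nothing in the labels says that the libraries came from separate cultures, so the spread behind the p-values may be technical. Where groups are said not to overlap, this describes 3 against 3 libraries. The share of all genes without overlap is not given here, so it adds no weight to a difference. SMARCA4 transcripts averaged 590, 482 and 474 CPM in GFP low cells at 24, 48 and 72 h, against 418, 446 and 411 CPM in GFP high cells, and were higher in GFP low cells at each time (log2 fold changes 0.50, 0.11 and 0.20, adjusted p at most 0.00748). A degron acts on the protein, so its transcript does not check the labels. Of 6 B cell markers none was at 0 in any group. Their summed level was lower in GFP low cells at each time, with 2330 to 2430, 2170 to 2250 and 2220 to 2330 CPM in GFP low cells at 24, 48 and 72 h, against 2560 to 2630, 2450 to 2550 and 2550 to 2620 CPM in GFP high cells. At these times 5, 3 and 3 of the 6 were called lower and 1 higher at each time. Of all tested genes, 28.5%, 13.2% and 13.5% were called lower and 29.3%, 10.6% and 12.9% higher. The 7 T cell markers, none of which was at 0, summed to 26.0 to 29.3, 40.5 to 44.8 and 41.2 to 44.7 CPM in GFP low cells at 24, 48 and 72 h, against 49.9 to 52.9, 47.1 to 50 and 56.3 to 58.9 CPM in GFP high cells. At 24, 48 and 72 h, 6, 2 and 6 of these 7 were called lower and 0 higher. Mitochondrial genes took 3.48% to 3.64%, 2.87% to 2.95% and 3.81% to 3.98% of counts in GFP low cells at the same times, against 4.27% to 4.62%, 3.63% to 3.78% and 2.67% to 2.79% in GFP high cells. Markers of epithelial, kidney or fibroblast cells summed to 8.03 to 10, 4.2 to 4.79 and 2.16 to 2.71 CPM in GFP low cells, against 5.74 to 6.16, 4.81 to 5.65 and 3.11 to 3.42 CPM in GFP high cells. Myeloid markers summed to 2.16 to 2.48 CPM in GFP low cells at 24 h, against 0.762 to 1.03 CPM in GFP high cells, and to at most 1.63 CPM later. Endothelial markers summed to at most 1.25 CPM and erythroid markers to at most 0.839 CPM in any library. S100A8 and CDH5 were at 0 in all 6 groups. The part of these levels in the AP-1 results was not tested. In bulk RNA, fewer cells expressing a gene and less RNA per cell cannot be told apart.

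JUND and JUNB transcripts dominated the family. Per kilobase of the deposited exon length, JUND averaged 28.2 CPM over the 18 libraries (19.5 to 40.4), JUNB 24.4 (20.8 to 30.5) and BATF 9.69 (7.67 to 13.5). JUN followed at 2.18, FOSB at 1.07, FOS at 0.969, ATF3 at 0.292 and FOSL2 at 0.0656 CPM per kilobase. JUNB and JUND together made up 74.9% to 81.6% of the summed level of the 10 genes per kilobase in each library, and 75.2% to 80.4% when the length of the principal transcript was used instead. FOSL1 and BATF3 were at background. FOSL1 had 3 counts over all libraries and was at 0 in 16 of 18, and BATF3 had 6 counts and was at 0 in 14 of 18. A count of 0 allows up to 3 counts, or 0.0541 CPM in the deepest and 0.110 CPM in the shallowest library, for counting error only. Both failed the filter, which counts libraries over a cut-off of 0.291 CPM, so that 8 of the 10 members were tested. The mean level of those 8 reached the cut-off in all 6 groups, and FOSL2 was over it in 17 of 18 libraries.

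**Figure D1:**
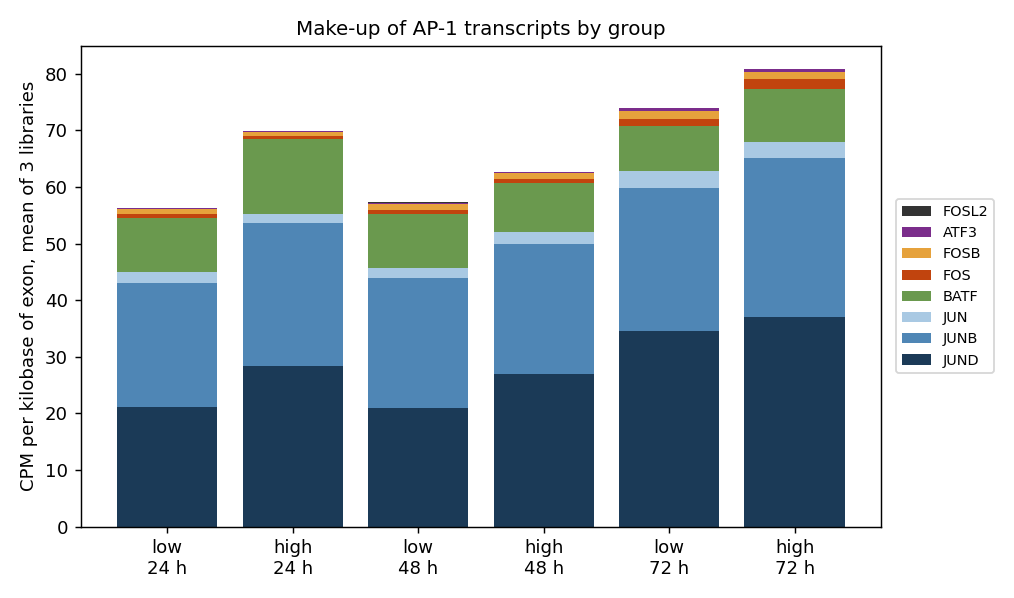
Summed transcript level of the AP-1 genes (y axis, CPM per kilobase of exon, mean of 3 libraries) in GFP low and GFP high cells at 24, 48 and 72 h (x axis), stacked by gene. JUND and JUNB fill most of each bar, and BATF shrinks to 10.7% of the total in GFP low and 11.5% in GFP high cells at 72 h.

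The FOS genes held a higher and the BATF genes a lower share of the family at 72 h than at 24 h, at both GFP levels. The JUN genes summed to 45.0 ± 2.54, 45.7 ± 4.08 and 62.8 ± 3.79 CPM per kilobase in GFP low cells at 24, 48 and 72 h, against 55.2 ± 5.57, 52.1 ± 4.11 and 67.9 ± 5.30 in GFP high cells (SD, n = 3 each). The FOS genes summed to 1.72 ± 0.0522, 1.74 ± 0.0333 and 2.84 ± 0.233 CPM per kilobase in GFP low cells, against 1.33 ± 0.0280, 1.80 ± 0.133 and 3.21 ± 0.314 in GFP high cells. The FOS genes thus held 3.06% of the family's level in GFP low cells at 24 h, against 1.91% in GFP high cells, and the ranges of the libraries did not overlap (2.91% to 3.20%, against 1.70% to 2.05%). BATF and BATF3 together held 16.8%, 16.7% and 10.7% at 24, 48 and 72 h in GFP low cells, against 18.9%, 13.9% and 11.5% in GFP high cells. These sums are descriptions and carry no test.

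**Figure D2:**
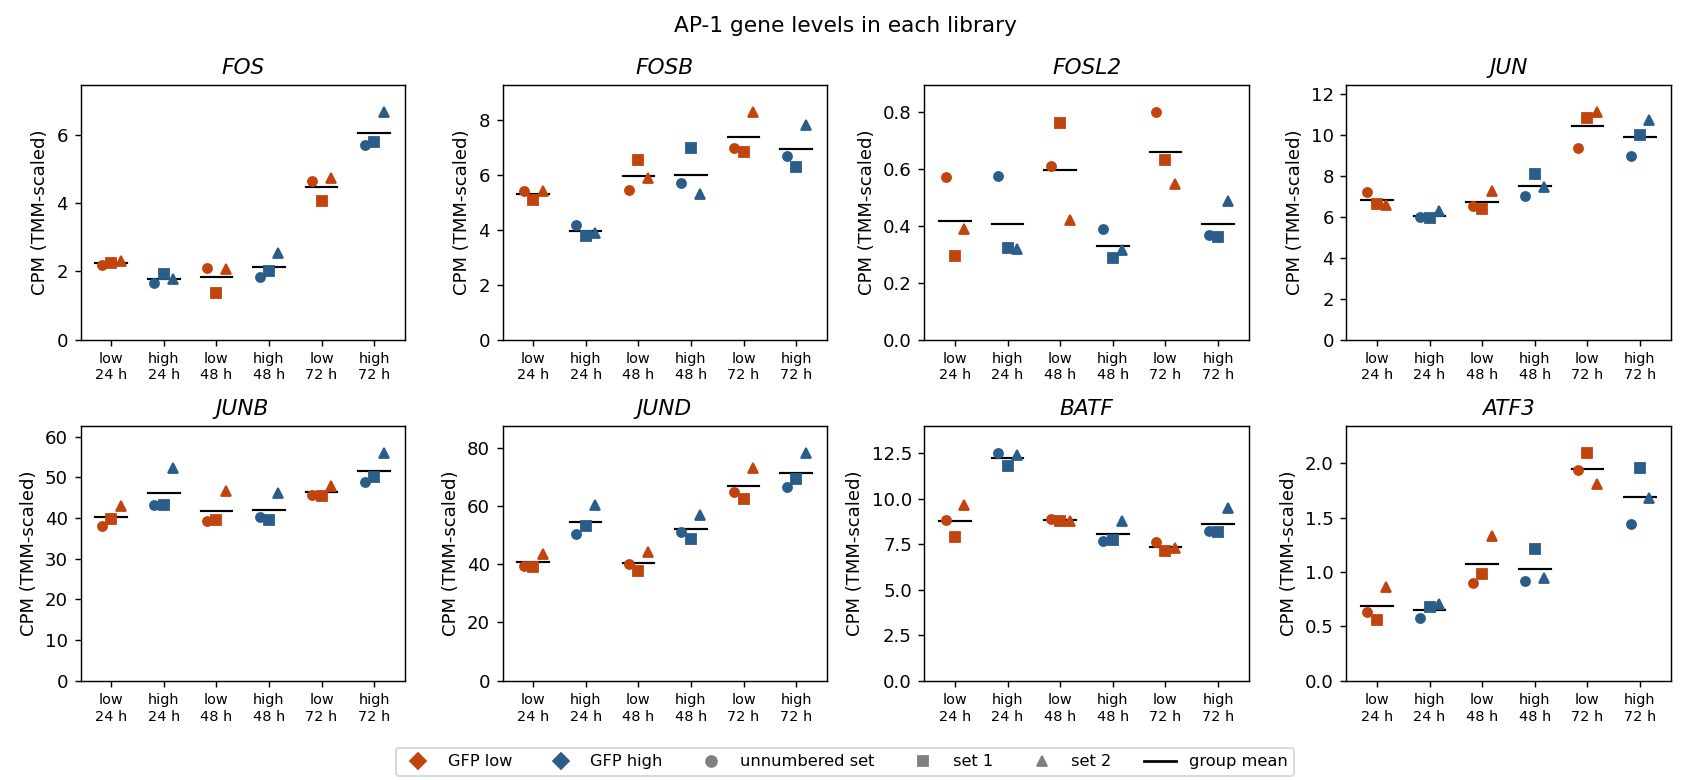
Level of each tested AP-1 gene (y axis, TMM-scaled CPM from 0, a scale of its own in each panel) in every library of GFP low (orange) and GFP high (blue) cells at 24, 48 and 72 h; marker shapes give the library set and bars the mean of 3 libraries. FOS, JUN, JUND and ATF3 stand highest at 72 h at both GFP levels, and BATF stands highest in GFP high cells at 24 h.

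At 24 h, FOSB was higher in GFP low than in GFP high cells and JUNB, JUND and BATF were lower. Thus 1 of the 8 tested members was higher and 3 were lower, while 57.9% of all tested genes were called, 29.3% higher and 28.5% lower, so the members' share was close to the background. At 48 h, JUND alone was called, as lower, against a background of 23.8% of genes called (10.6% higher, 13.2% lower). At 72 h, FOS and BATF were lower, against a background of 26.4% (12.9% higher, 13.5% lower). The median log2 fold change over all tested genes was 0.03, -0.01 and 0.00 at the 3 times, and the median absolute change 0.31, 0.13 and 0.13. The 3 comparisons use separate libraries. These calls and backgrounds are from the fit without a term for library set. With library set as a blocking term, FOS at 24 h, FOSL2 at 48 h, and JUNB and JUND at 72 h were called as well. The share of all genes called in that fit is not given here.

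**Figure D3:**
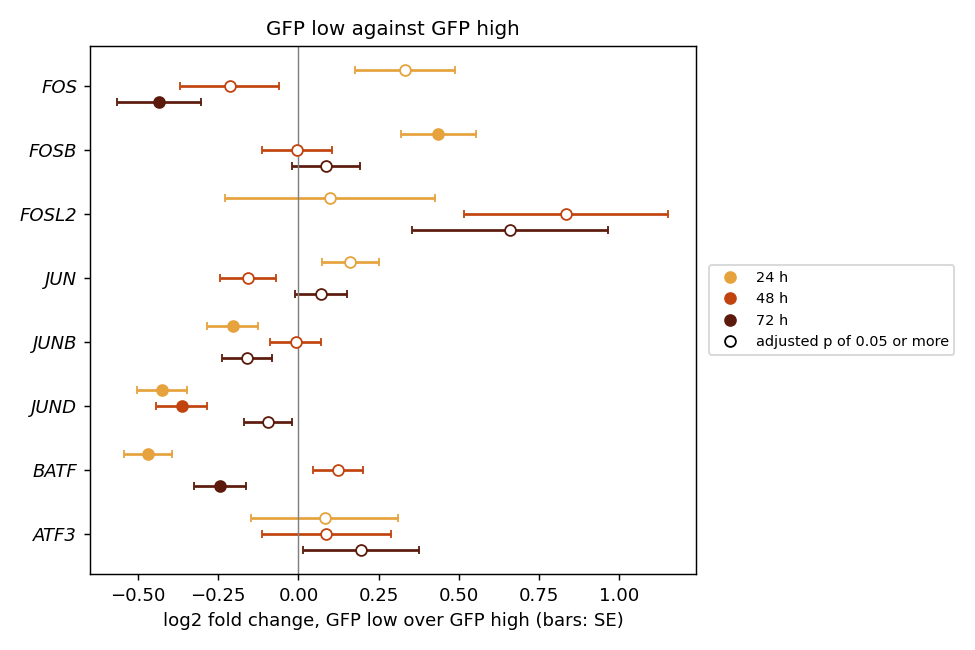
Log2 fold change of GFP low over GFP high (x axis, bars SE) for the 8 tested AP-1 genes (y axis) at 24, 48 and 72 h; filled points have an adjusted p under 0.05. JUND lies below 0 at all 3 times, with -0.42, -0.36 and -0.10, while FOS and BATF change side between times.

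JUND, the JUN protein best known for restraining growth, was lower in GFP low cells at 24 and 48 h. At 24 h it lay at 39.4, 39.2 and 43.5 CPM in GFP low cells, against 50.3, 53.0 and 60.3 CPM in GFP high cells. At 48 h it lay at 39.9, 37.6 and 44.2 CPM in GFP low cells, against 50.9, 48.7 and 56.8 CPM in GFP high cells. The groups did not overlap at either time. JUND was lower in GFP low cells, with a log2 fold change of -0.42 ± 0.08 at 24 h (SE, edgeR adjusted p = 8.5e-05) and -0.36 ± 0.08 at 48 h (adjusted p = 0.00155). At 72 h the libraries overlapped, with 64.7, 62.5 and 73.1 CPM in GFP low cells, against 66.6, 69.4 and 78.0 CPM in GFP high cells. The difference at 72 h was -0.10 (95% interval -0.25 to 0.06, adjusted p = 0.393). Within each library set JUND was lower in GFP low cells at all 3 times, with log2 differences of -0.35 to -0.47, -0.35 to -0.37 and -0.04 to -0.15. With library set as a blocking term in the fit, the 72 h difference was called too (-0.09 ± 0.03, adjusted p = 0.00464), and it was -0.23 ± 0.03 with trends on gene length and GC content removed (adjusted p = 8.33e-06).

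JUNB, a JUN protein induced early that can oppose JUN at some promoters, lay at 38.1, 39.8 and 43.1 CPM in GFP low cells at 24 h, against 43.2, 43.2 and 52.4 CPM in GFP high cells. At 72 h it lay at 45.7, 45.5 and 47.9 CPM in GFP low cells, against 49.0, 50.2 and 55.9 CPM in GFP high cells. Neither pair of groups overlapped, and set 2, the deepest, held the highest JUNB and the highest JUND library in 6 of 6 groups. JUNB was lower at 24 h (-0.20 ± 0.08, adjusted p = 0.0317), a call that ended with DESeq2 (adjusted p = 0.0525), with the length trend removed (-0.12, adjusted p = 0.242), and when GFP high set 2 (-0.10, adjusted p = 0.305), GFP low set 1 (adjusted p = 0.0898) or the GFP low unnumbered library (adjusted p = 0.123) was left out. At 72 h it was not called (-0.16, 95% interval -0.32 to 0.00, adjusted p = 0.145). It was called with library set as a blocking term (-0.16 ± 0.03, adjusted p = 0.000158), without the filter (adjusted p = 0.00196), with the 2 groups fitted alone (adjusted p = 0.0293) and with length and GC trends removed (-0.25, adjusted p = 2.52e-05). At 48 h the groups overlapped, with means of 41.8 CPM in GFP low and 42.0 CPM in GFP high cells (-0.01, 95% interval -0.17 to 0.16). JUNB shares 259 exon bases with HOOK2 on the opposite strand, and the sources used here do not say whether counting used the strand. HOOK2 averaged 13.9 ± 0.347, 10.5 ± 0.434 and 12.7 ± 0.373 CPM in GFP low cells at 24, 48 and 72 h, against 14.4 ± 0.523, 14.3 ± 0.514 and 13.9 ± 0.575 CPM in GFP high cells (SD, n = 3 each).

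JUN, the founding member and the strongest activator among the JUN proteins, lay at 7.18, 6.62 and 6.59 CPM in GFP low cells at 24 h, against 5.96, 5.92 and 6.26 CPM in GFP high cells. The groups did not overlap, and the difference was not called (0.16, 95% interval -0.02 to 0.35, adjusted p = 0.123). At 48 h the means were 6.71 CPM in GFP low and 7.51 CPM in GFP high cells (-0.16, adjusted p = 0.208), and at 72 h they were 10.4 CPM in GFP low and 9.89 CPM in GFP high cells (0.07, adjusted p = 0.590), with overlapping libraries at both times. At 48 h JUN was called lower only when length and GC trends were removed together with a library set block (-0.18 ± 0.07, adjusted p = 0.0496).

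**Figure D4:**
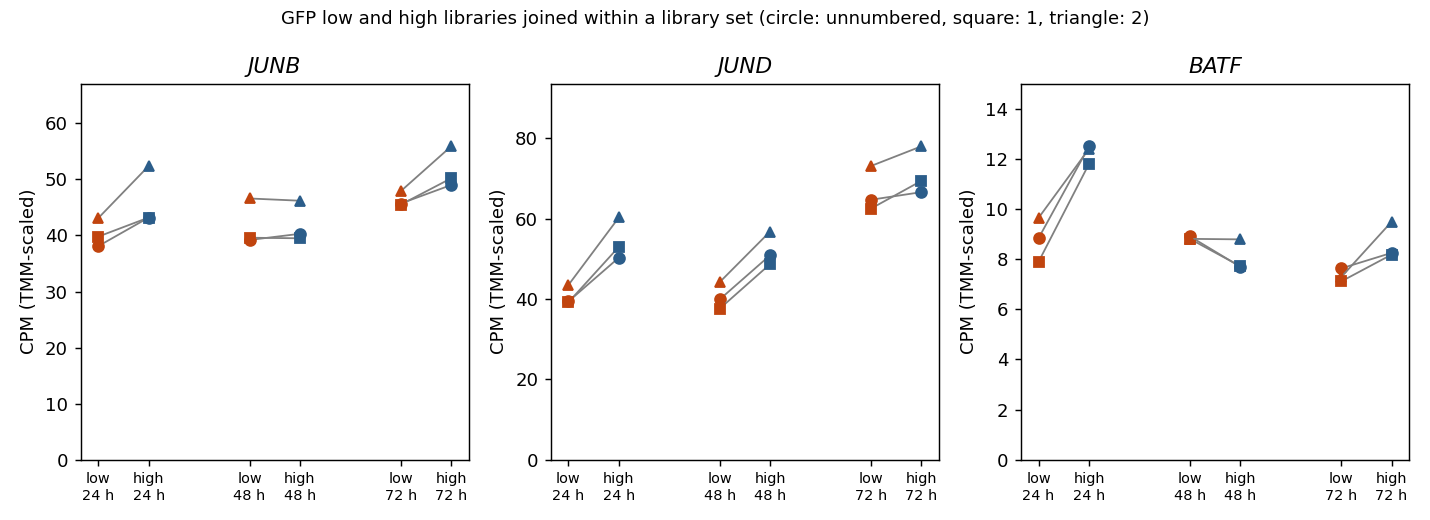
JUNB, JUND and BATF levels (y axis, TMM-scaled CPM from 0) in GFP low and GFP high libraries (x axis), with lines joining the libraries of 1 set at each time. The lines of JUND run upward from GFP low to GFP high in 3 of 3 sets at each time, and those of BATF run level or downward at 48 h.

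BATF, a partner of JUN proteins without a transactivation domain of its own, changed its GFP difference with time. At 24 h it lay at 8.84, 7.90 and 9.65 CPM in GFP low cells, against 12.5, 11.8 and 12.4 CPM in GFP high cells. This was the lowest fold of any member at 24 h (-0.47 ± 0.08, a ratio of 0.723, adjusted p = 1.5e-05). At 48 h it lay at 8.91, 8.81 and 8.81 CPM in GFP low cells, against 7.70, 7.72 and 8.79 CPM in GFP high cells, and the difference of 0.12 was not called (95% interval -0.04 to 0.29, adjusted p = 0.293). At 72 h it lay at 7.63, 7.11 and 7.28 CPM in GFP low cells, against 8.25, 8.18 and 9.49 CPM in GFP high cells, and was lower (-0.24 ± 0.08, adjusted p = 0.0297). The groups did not overlap at any of the times. The 72 h call ended with DESeq2 (adjusted p = 0.0606), without the filter (0.0541), with the 2 groups fitted alone (0.0511) and with the length trend removed (-0.22, adjusted p = 0.155). It also ended when GFP high set 2 (-0.16, adjusted p = 0.196), GFP low set 1 (0.0941) or GFP low set 2 (0.0865) was left out.

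FOS, the prototype early response gene, lay at 2.19, 2.23 and 2.30 CPM in GFP low cells at 24 h, against 1.66, 1.91 and 1.78 CPM in GFP high cells. At 72 h it lay at 4.65, 4.06 and 4.73 CPM in GFP low cells, against 5.71, 5.79 and 6.66 CPM in GFP high cells. The groups were apart at both times and in opposite order. The 24 h difference was not called (0.33 ± 0.16, adjusted p = 0.0744), but was with library set as a blocking term (0.33 ± 0.15, adjusted p = 0.0474) or with the length trend removed (0.36 ± 0.15, adjusted p = 0.0434). At 72 h FOS was lower in GFP low cells (-0.43 ± 0.13, a ratio of 0.740, adjusted p = 0.0159). That call ended without GFP high set 2 (-0.36, adjusted p = 0.0897) or GFP low set 1 (-0.37, adjusted p = 0.0705). At 48 h the libraries overlapped, with 2.09, 1.36 and 2.08 CPM in GFP low cells, against 1.84, 2.01 and 2.54 CPM in GFP high cells (-0.21, adjusted p = 0.357).

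FOSB, a FOS paralogue with a splice form that lacks the end of the protein, lay at 5.44, 5.11 and 5.44 CPM in GFP low cells at 24 h, against 4.2, 3.78 and 3.89 CPM in GFP high cells. It was higher in GFP low cells in every set (0.44 ± 0.12, a ratio of 1.35, adjusted p = 0.0028). At 48 and 72 h the groups overlapped, with means of 5.97 and 7.38 CPM in GFP low cells, against 6.01 and 6.94 CPM in GFP high cells (0.00 and 0.09, adjusted p = 0.988 and 0.609). Counts per gene do not tell its splice forms apart.

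FOSL2, the low-level FOS paralogue also called FRA2, had 9 to 28 counts per library, so its intervals were wide. At 48 h it lay at 0.609, 0.763 and 0.419 CPM in GFP low cells, against 0.389, 0.287 and 0.315 CPM in GFP high cells. The groups did not overlap, and the difference of 0.83 ± 0.32 missed the threshold (95% interval 0.17 to 1.5, adjusted p = 0.0637). It was called with library set as a blocking term (0.81 ± 0.31, adjusted p = 0.0439) and without GFP low set 2 (1.07 ± 0.33, adjusted p = 0.0274). At 72 h FOSL2 averaged 0.660 CPM in GFP low and 0.406 CPM in GFP high cells (0.66, adjusted p = 0.123), and at 24 h 0.419 CPM in GFP low and 0.405 CPM in GFP high cells (0.10, 95% interval -0.58 to 0.78). ATF3 averaged 0.684, 1.07 and 1.94 CPM in GFP low cells at 24, 48 and 72 h, against 0.653, 1.02 and 1.69 CPM in GFP high cells. Its GFP groups overlapped at each time, with differences of 0.08, 0.09 and 0.19 and adjusted p of 0.779, 0.817 and 0.487.

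Of the 8 tested members, FOS, FOSB, JUN, JUND and BATF were each called in at least 1 test of a change in the GFP difference with time. How many of all genes were called in at least 1 such test was not counted, so the shares are given for each test. From 24 to 48 h BATF moved up by 0.59 ± 0.11 on the log2 scale (adjusted p = 0.000114), while FOS (-0.55 ± 0.22, adjusted p = 0.0491), FOSB (-0.44 ± 0.16, adjusted p = 0.0293) and JUN (-0.32 ± 0.12, adjusted p = 0.0409) moved down. FOSL2 had the largest estimate of the 8, 0.74 ± 0.46, and was not called (95% interval -0.22 to 1.69, adjusted p = 0.212). These are 1 member up and 3 down, against a background of 43.5% of genes called, 22.1% up and 21.4% down. From 48 to 72 h the BATF difference moved back by -0.37 ± 0.11 (adjusted p = 0.0453), the only member called, against a background of 9.02% of genes (5.19% up, 3.83% down). From 24 to 72 h FOS moved by -0.77 ± 0.20 (adjusted p = 0.00408) and JUND by 0.33 ± 0.11 (adjusted p = 0.0187), 1 member each way, against a background of 41.8% (22.2% up, 19.6% down). The BATF change from 24 to 48 h and the FOS change from 24 to 72 h were called in every alternative and with every library left out in turn.

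The other 5 of these calls were less secure. From 24 to 48 h the FOS, FOSB and JUN calls ended with DESeq2 (adjusted p = 0.0917, 0.0508 and 0.0989) and without the filter (0.148, 0.0525 and 0.146). The FOS call also ended with DESeq2's size factors (0.0534) and with the 4 groups fitted alone (0.0766). The FOSB call also ended with the length trend removed (0.0577) or length and GC trends removed (0.0679). The BATF call from 48 to 72 h ended with DESeq2 (0.0823), without the filter (0.0558) and with the length trend (0.26) or both trends (0.0544) removed. The JUND call from 24 to 72 h ended with the length trend removed (0.0742). Leaving out 1 of the 12 libraries ended the FOS call from 24 to 48 h in 8 cases (any library at 24 h, GFP high 48 h set 2 or GFP low 48 h set 1), with changes of -0.59 to -0.36 and adjusted p up to 0.201 in those cases. It ended the FOSB call in 7 cases (-0.43 to -0.32, adjusted p up to 0.107), namely GFP low unnumbered and set 2 at 24 and 48 h, GFP high set 1 at both times and GFP high 24 h set 2. It ended the JUN call in 8 cases (-0.33 to -0.25, adjusted p up to 0.139), namely the unnumbered library and set 1 of each group except GFP high 48 h unnumbered, and GFP high 48 h set 2. The BATF call from 48 to 72 h ended in 9 cases (-0.40 to -0.29, adjusted p up to 0.129), all but GFP high 48 h set 2 and GFP high 72 h unnumbered and set 1. The JUND call from 24 to 72 h ended without GFP high 24 h set 2 (0.25, adjusted p = 0.0747), without GFP high 72 h unnumbered (0.28, adjusted p = 0.0507) and without GFP low 72 h set 2 (0.27, adjusted p = 0.0566). With library set as a blocking term, the changes of JUNB from 24 to 48 h (0.20 ± 0.05, adjusted p = 0.000448) and from 48 to 72 h (-0.16 ± 0.05, adjusted p = 0.0147), of JUND from 48 to 72 h (0.27 ± 0.04, adjusted p = 5.26e-06) and of FOSB from 24 to 72 h (-0.36 ± 0.14, adjusted p = 0.0381) were called as well. That FOSB change was -0.35 and not called otherwise (adjusted p = 0.0811), but was without GFP high 72 h set 1 (-0.41, adjusted p = 0.0482) or GFP low 72 h set 2 (-0.43, adjusted p = 0.0384). The BATF change from 24 to 72 h was 0.23 (adjusted p = 0.111) and was called without GFP low 24 h set 2 (0.31, adjusted p = 0.0369) or GFP high 72 h set 2 (0.33, adjusted p = 0.0246).

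**Figure D5:**
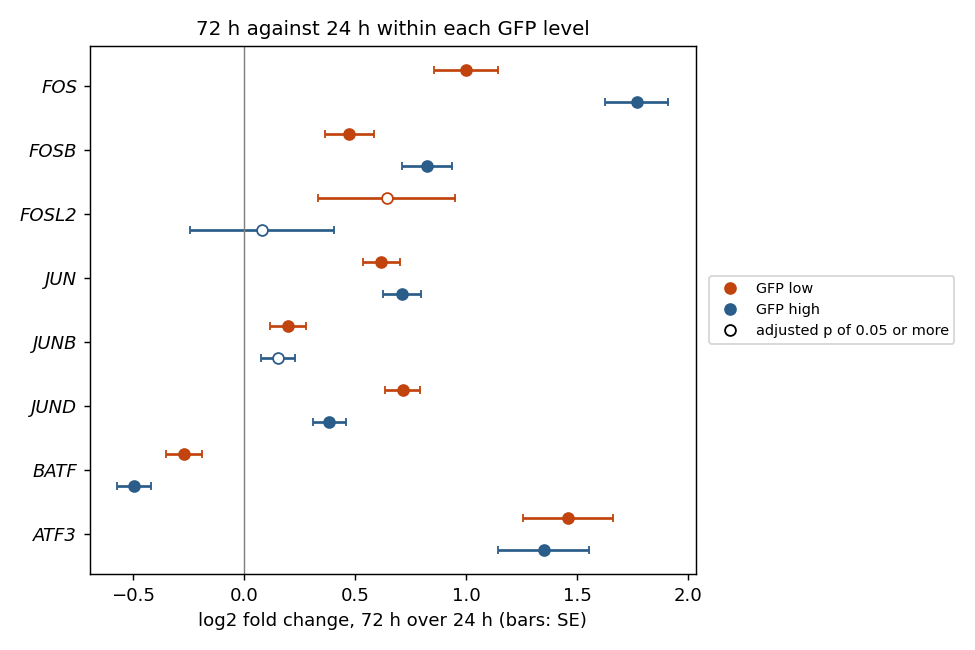
Log2 fold change of 72 h over 24 h (x axis, bars SE) for the 8 tested AP-1 genes (y axis) in GFP low and GFP high cells; filled points have an adjusted p under 0.05. FOS and ATF3 rose most at both GFP levels, and BATF fell in both.

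Most tested members rose with time at both GFP levels. From 24 to 72 h, 6 of the 8 tested members rose in GFP low cells (FOS, FOSB, JUN, JUNB, JUND and ATF3) and BATF fell, against a background of 57.1% of genes called (29.6% higher, 27.5% lower). In GFP high cells 5 rose (FOS, FOSB, JUN, JUND and ATF3) and BATF fell, against a background of 28.9% (13.9% higher, 15% lower). The called shares, 7 of 8 and 6 of 8, were above those backgrounds. The 7 include JUNB, whose call was lost in several alternatives given below. The members were chosen with earlier results of these data known, and the excess was not tested. FOS rose by 1.00 ± 0.14 on the log2 scale in GFP low cells (adjusted p = 2.94e-06) and by 1.77 ± 0.14 in GFP high cells, a fold of 3.40 (adjusted p = 3.84e-09). ATF3 rose by 1.46 ± 0.20 in GFP low cells and 1.35 ± 0.20 in GFP high cells, that is, 2.76-fold and 2.55-fold (adjusted p = 2.05e-06 and 2.77e-05). The change over time of FOS differed between the GFP levels by the test above, and that of ATF3 was not shown to differ (0.11, 95% interval -0.50 to 0.72).

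JUN rose by 0.62 ± 0.08 in GFP low cells and 0.71 ± 0.08 in GFP high cells (adjusted p = 1.68e-06 and 1.28e-06), and FOSB by 0.48 ± 0.11 in GFP low cells and 0.82 ± 0.11 in GFP high cells (adjusted p = 0.000815 and 7.77e-06). JUND rose by 0.71 ± 0.08 in GFP low cells and 0.38 ± 0.08 in GFP high cells (adjusted p = 7.29e-08 and 0.00049). BATF fell, with log2 fold changes of -0.27 ± 0.08 in GFP low cells and -0.49 ± 0.08 in GFP high cells (adjusted p = 0.00722 and 3.05e-05). The first call ended without GFP low 24 h set 2 (-0.19, adjusted p = 0.0802). JUNB rose by 0.20 ± 0.08 in GFP low cells (adjusted p = 0.0402). It was 0.15 in GFP high cells, which was not called (adjusted p = 0.151). It was called there with library set as a blocking term (0.15 ± 0.03, adjusted p = 0.000234), without the filter (adjusted p = 0.00348) and with length and GC trends removed (adjusted p = 0.00291). The JUNB call in GFP low cells ended with DESeq2 (adjusted p = 0.0693), with the length trend removed (0.06, adjusted p = 0.548) and in 5 of 6 cases with 1 library left out (all but 24 h set 2, with 0.16 to 0.21 and adjusted p up to 0.145). FOSL2 was 0.64 ± 0.31 in GFP low cells (adjusted p = 0.0809) and 0.08 ± 0.32 in GFP high cells (adjusted p = 0.891). The first was called without GFP low 24 h unnumbered (0.90, adjusted p = 0.0336), with the length trend removed (0.75, adjusted p = 0.0456) and with length and GC trends removed (0.78, adjusted p = 0.0376). JUNB in GFP high cells was also called without GFP high 24 h set 2 (0.26, adjusted p = 0.0153).

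The steps between times differed by gene. From 24 to 48 h in GFP low cells ATF3 alone rose (0.63 ± 0.21, adjusted p = 0.016), against a background of 50.8% of genes called (25.7% higher, 25.1% lower). In GFP high cells FOSB (0.60 ± 0.12), JUN (0.31 ± 0.09) and ATF3 (0.62 ± 0.22) rose and BATF fell (-0.59 ± 0.08), with adjusted p of 0.000706, 0.0155, 0.0481 and 7.68e-06, against a background of 20.6% (10.6% higher, 9.97% lower). The ATF3 call in GFP high cells ended with any 1 library left out (adjusted p 0.059 to 0.186), with DESeq2 (0.129) or its size factors (0.0506), without the filter (0.168) and with the groups fitted alone (0.0752). The one in GFP low cells ended without the filter (0.053). It also ended without GFP low 24 h unnumbered (0.57, adjusted p = 0.0562), 24 h set 1 (0.51, adjusted p = 0.073) or 48 h set 2 (0.42, adjusted p = 0.158). The JUN call ended without GFP high 24 h set 1 (adjusted p = 0.0539) or 48 h set 1 (adjusted p = 0.0783). JUNB in GFP high cells was not called (-0.14, adjusted p = 0.223). It was called lower with library set as a blocking term (-0.15 ± 0.03, adjusted p = 0.000874), without the filter (adjusted p = 0.00736) and with length and GC trends removed (adjusted p = 0.0186).

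From 48 to 72 h FOS rose by 1.27 ± 0.14 in GFP low cells and 1.49 ± 0.14 in GFP high cells (adjusted p = 6.46e-07 and 6.48e-08). In GFP low cells JUN rose by 0.63 ± 0.08, JUND by 0.72 ± 0.08 and ATF3 by 0.84 ± 0.19, and in GFP high cells JUN rose by 0.40 ± 0.08, JUND by 0.45 ± 0.08 and ATF3 by 0.73 ± 0.20 (adjusted p at most 0.00741). In GFP low cells FOSB also rose (0.32 ± 0.11, adjusted p = 0.0318) and BATF fell (-0.27 ± 0.08, adjusted p = 0.0163), so that 5 members rose and 1 fell against a background of 26.4% of genes called (13.9% higher, 12.5% lower). In GFP high cells JUNB rose instead (0.30 ± 0.08, adjusted p = 0.0069), so that 5 rose and 0 fell against a background of 27.8% (13.7% higher, 14.2% lower). No test of a difference between GFP levels was passed for FOSB or JUNB over this step in the fit without the block (0.09 and -0.15, adjusted p = 0.802 and 0.471). The FOSB call ended without GFP low 48 h unnumbered (0.24, adjusted p = 0.157), 48 h set 2 (0.31, adjusted p = 0.088) or 72 h set 2 (0.20, adjusted p = 0.234), and with DESeq2 (0.055). The BATF call ended with the length trend removed (0.0651) and without GFP low 72 h set 1 (adjusted p = 0.052), and the JUNB call without GFP high 72 h set 2 (0.23, adjusted p = 0.0589). With library set as a blocking term, JUNB was called in GFP low cells (0.14 ± 0.03, adjusted p = 0.00104) and FOSB in GFP high cells (0.25 ± 0.10, adjusted p = 0.0396). The same calls were made without the filter (adjusted p = 0.0155) or without GFP low 48 h set 2 (0.23, adjusted p = 0.0427) for JUNB, and without GFP high 48 h set 1 for FOSB (0.34, adjusted p = 0.0301). The steps to 48 h and from 48 h share the 48 h libraries.

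Ordered by mean CPM over the 6 groups, FOS ran from GFP high 72 h (6.06) and GFP low 72 h (4.48) through GFP low 24 h (2.24), GFP high 48 h (2.13) and GFP low 48 h (1.85) to GFP high 24 h (1.78). Its 2 highest groups stood apart from their neighbours, and the libraries of the other neighbours overlapped. JUND ran from GFP high 72 h (71.4) through GFP low 72 h (66.8), GFP high 24 h (54.5), GFP high 48 h (52.2) and GFP low 24 h (40.7) to GFP low 48 h (40.6), with gaps below GFP low 72 h and below GFP high 48 h. BATF ran from GFP high 24 h (12.2) through GFP low 48 h (8.84), GFP low 24 h (8.80), GFP high 72 h (8.64) and GFP high 48 h (8.07) to GFP low 72 h (7.34), with gaps below the first and above the last. JUN, FOSB and ATF3 were highest in GFP low 72 h, at 10.4, 7.38 and 1.94 CPM, and lowest in GFP high 24 h, at 6.05, 3.96 and 0.653 CPM. JUNB spanned least, with 51.7 CPM in GFP high 72 h and 40.3 CPM in GFP low 24 h, a ratio of 1.28. By the F test over the 6 groups, 7 of the 8 tested members were called, against a background of 73.5% of genes. FOS (F = 60.3), JUND (39.5) and JUN (29.6) had the highest F, and FOSL2 was not called (2.90, adjusted p = 0.0521).

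The genes most like these 3 members were sought among the 10081 protein-coding genes that averaged 1 CPM or more, by Pearson correlation of log2 CPM over the 18 libraries. FOS was most like AARS1, an alanine tRNA synthetase (r = 0.963), PLIN3, a lipid droplet protein (0.963), and RIMS3 (0.962). JUND was most like TBC1D1 (0.967), the early response gene IER2 (0.947) and MARCKSL1 (0.945). IER2 averaged 29.9, 33.8 and 48.2 CPM in GFP low cells at 24, 48 and 72 h, against 39.5, 42.7 and 57.8 CPM in GFP high cells. TBC1D1 and MARCKSL1 also had lower means in GFP low cells at each time. All 3 were picked for likeness to JUND in these libraries, so an order shared with JUND adds no evidence. JUN was most like MVD, an enzyme of cholesterol synthesis (0.960), SESN2, a stress-induced sestrin (0.956), and SCART1 (0.944). SESN2 averaged 16.8, 18.4 and 37.5 CPM in GFP low cells at the same times, against 14.8, 20.2 and 38.5 CPM in GFP high cells. The 18 points share libraries, sets and times, and the correlations are descriptions.

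The gene lists that follow stand beside the 57.9%, 23.8% and 26.4% of all tested genes called at 24, 48 and 72 h, and a share near these is not a result about a list. The named members of each list are given at all 3 times. Partners in the basic leucine zipper family were called in both directions. Of 10 listed partners, 7 were tested: 3 were higher and 2 lower in GFP low cells at 24 h, 1 and 3 at 48 h, then 1 and 1 at 72 h, with median log2 fold changes of -0.03, -0.12 and 0.04. ATF7 was higher at 24 h (0.28 ± 0.04, adjusted p = 2.9e-06), lower at 48 h (-0.15 ± 0.04, adjusted p = 0.00776) and not called at 72 h (0.01). ATF4, the main factor of the integrated stress response, was lower at 24 h (-0.23 ± 0.02, adjusted p = 2.96e-08) and 48 h (-0.07 ± 0.02, adjusted p = 0.0465) and not called at 72 h (-0.01). JDP2, a JUN partner that represses, was higher at 24 h (0.69 ± 0.27, adjusted p = 0.0395) and 48 h (0.73 ± 0.23, adjusted p = 0.0247). Its value of 0.28 at 72 h was not called. MAFG was higher at 24 h (0.25 ± 0.05, adjusted p = 0.000135) and 72 h (0.29 ± 0.05, adjusted p = 9.15e-05). Its value of -0.12 at 48 h was not called. MAFF, a small MAF protein like MAFG, was lower at 48 h (-0.47 ± 0.17, adjusted p = 0.0428) and 72 h (-0.58 ± 0.15, adjusted p = 0.00555). Its value of -0.12 at 24 h was not called.

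Genes of the MAP kinase route, which phosphorylates JUN and drives FOS transcription, were called at 24 h about as often as all genes. Of 25 tested, 9 were higher and 5 lower in GFP low cells at 24 h (all genes 29.3% and 28.5%), 5 and 3 at 48 h, then 3 and 7 at 72 h (medians 0.02, 0.02 and 0.04). MAP2K6, a kinase that activates p38, was higher at each time, with 15, 12.4 and 12.2 CPM in GFP low cells at 24, 48 and 72 h, against 7.43, 6.81 and 7 CPM in GFP high cells (1.03 ± 0.08, 0.87 ± 0.08 and 0.80 ± 0.08, adjusted p at most 1.46e-07). MAP3K5, a stress kinase upstream of JNK and p38 also called ASK1, was higher at 24 h (0.35 ± 0.03, adjusted p = 4.36e-09) and lower at 48 h (-0.13 ± 0.03, adjusted p = 0.00542) and 72 h (-0.19 ± 0.03, adjusted p = 0.000164). MAP2K1 was lower at 24 h (-0.30 ± 0.03, adjusted p = 6.29e-09) and 72 h (-0.10 ± 0.03, adjusted p = 0.0103). Its value of -0.05 at 48 h was not called. ELK4 was lower at 48 h (-0.23 ± 0.03, adjusted p = 1.88e-05) and 72 h (-0.11 ± 0.03, adjusted p = 0.0138). Its value of 0.06 at 24 h was not called. Of 15 feedback inhibitors of the route, 11 were tested: 2 were higher and 4 lower at 24 h, 3 and 2 at 48 h, then 2 and 2 at 72 h (medians -0.09, -0.04 and 0.02). DUSP5, a nuclear phosphatase for ERK, was higher at each time, at 65.1, 56.0 and 51.7 CPM in GFP low cells, against 31.0, 22.8 and 24.2 CPM in GFP high cells (1.07 ± 0.04, 1.30 ± 0.04 and 1.1 ± 0.04, adjusted p at most 5.16e-15). DUSP2 was lower at each time (-0.54, -0.21 and -0.33, SE 0.05 each, adjusted p at most 0.00229). DUSP10 was lower at 72 h (-0.33 ± 0.05, adjusted p = 1.05e-05) and not called at 24 h (0.06) or 48 h (-0.04).

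Of 5 factors that mark AP-1 proteins for breakdown or regulate that step, 2 were higher and 2 lower in GFP low cells at 24 h, 1 and 1 at 48 h, then 0 and 1 at 72 h (medians 0.01, -0.03 and -0.05). ITCH, a ubiquitin ligase for JUN and JUNB, was higher at 24 h (0.29 ± 0.03, adjusted p = 1.92e-08) and 48 h (0.15 ± 0.03, adjusted p = 0.00081). Its value of 0.07 at 72 h was not called. COP1 was lower at 24 h (-0.34 ± 0.03, adjusted p = 3.88e-09) and 72 h (-0.18 ± 0.03, adjusted p = 0.000103) and not called at 48 h (-0.01). COPS5 was lower at 24 h (-0.35 ± 0.03, adjusted p = 8.4e-10), with -0.03 and -0.06 at 48 and 72 h not called. FBXW7 was lower at 48 h (-0.20 ± 0.03, adjusted p = 0.000157), with 0.01 and -0.05 at 24 and 72 h not called. Of 20 genes described as AP-1 targets in other cells, 10 were tested: 4 were higher and 4 lower at 24 h, 3 and 2 at 48 h, then 2 and 4 at 72 h (medians 0.04, 0.07 and -0.75). EZR, a linker of membrane and actin, was higher at each time (0.38, 0.33 and 0.28, SE 0.02 each, adjusted p at most 5.26e-10). The cytokine TNF was lower at each time (-0.71 ± 0.07, -0.98 ± 0.07 and -1.04 ± 0.07, adjusted p at most 7.43e-09). The cell cycle inhibitor CDKN1A was lower at each time too (-0.54 ± 0.05, -0.55 ± 0.05 and -0.75 ± 0.05, adjusted p at most 4.52e-08).

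Of 6 partners and targets of BATF in lymphocytes, 5 were tested: 3 were higher and 2 lower in GFP low cells at 24 h, 3 and 1 at 48 h, then 1 and 1 at 72 h (medians 0.60, 0.59 and 0.04). PRDM1, the regulator of plasma cell fate, was higher at each time (1.41, 1.34 and 1.47, SE 0.04 each), and IRF8, which binds composite sites with BATF, was lower at each time (-0.51, -0.23 and -0.18, SE 0.02 each). IRF4, the other such partner, was higher at 24 h (1.07 ± 0.13, adjusted p = 2.3e-07) and 48 h (0.59 ± 0.14, adjusted p = 0.00376). Its value of 0.24 at 72 h was not called. Of 22 other early response genes, 14 were tested: 5 were higher and 5 lower at 24 h, 0 and 7 at 48 h, then 2 and 5 at 72 h (medians 0.04, -0.19 and -0.07). EGR1 was higher at 24 h (0.37 ± 0.06, adjusted p = 2.69e-05) and lower at 48 h (-0.43 ± 0.07, adjusted p = 6.72e-05) and 72 h (-0.54 ± 0.06, adjusted p = 7.8e-07). ZFP36L1, which binds and destabilizes AU-rich transcripts, was higher at 24 h (0.56 ± 0.03, adjusted p = 5.19e-12) and lower at 48 h (-0.16 ± 0.04, adjusted p = 0.00153). Its value of 0.08 at 72 h was not called. KLF10 was lower at 24 h (-0.44 ± 0.03, adjusted p = 8.25e-11) and 48 h (-0.09 ± 0.03, adjusted p = 0.0331) and not called at 72 h (-0.03). MCL1 was lower at each time (-0.25, -0.23 and -0.12, SE 0.02 each, adjusted p at most 4.44e-05). BTG2 was higher at 24 h (0.06 ± 0.02, adjusted p = 0.0314) and 72 h (0.16 ± 0.02, adjusted p = 5.83e-06). Its value of -0.04 at 48 h was not called.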

How the data were processed

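Total RNA of 18 Raji libraries was depleted of ribosomal RNA and sequenced. The authors deposited raw counts, whole numbers per gene, in 1 table laid out as featureCounts writes it, per the file headers. The submitters' processing notes name FastQC, STAR, featureCounts, Subread, R 4.2.1 and hg38. The sources used here do not give the strand setting, the annotation release or how reads mapping to several places were treated. Columns are named by group and library set, and do not show which sample of a group they hold. Of 60710 lines, 3 could not be read as genes.

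The fit of all genes used edgeR 4.0.16 in R 4.3.3 (filterByExpr, 16474 kept; TMM; 6 group means, 12 residual degrees of freedom; quasi-likelihood F tests, 2-sided, Benjamini-Hochberg). The common biological coefficient of variation was 3.49%. The script was tested on simulated data with changes placed in GFP low cells at 24 h. It recovered 53.7% of 1.2-fold, 79.1% of 1.5-fold and 97% of 2-fold changes, and called 14 unchanged genes. Small differences can therefore be missed. The changes were placed in genes that averaged 1 CPM or more, and the simulated libraries had no set effects. FOSL2 lay below that level in every library, so these rates do not cover it. Values are log2 fold changes with SE, and CPM scaled by TMM or per kilobase of the deposited exon length. Alternatives were DESeq2 1.42.0, its size factors, no filter, the compared groups alone, the library set as a block, spline trends on length and GC, and each library left out.

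The sets pair the libraries: over genes, 2 libraries of 1 set deviated together from their group means (r 0.22 to 0.55, median 0.46, 45 pairs), and each of the 18 libraries was closest to its own set. Libraries of different sets had a median r of -0.21 (90 pairs). Deviations from a group mean cancel out within the group, so this value follows from the first and adds no separate evidence. The block is therefore given beside a result where it changes a call. Calls, counts of called members and background shares are otherwise from the fit without the block, which leaves this pairing out.

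The members, gene lists and tests were chosen with earlier results of these data known. All members, the called list members with the smallest adjusted p in each direction, and the 3 genes most like each of the 3 members with the highest F are named. Promoter sequences are those of RefSeq.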

Additional observations from a re-analysis of the deposited data

Results flagged for a closer look

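The GFP difference changed between times for the following members, by the interaction test of edgeR with adjustment over all genes. BATF changed by 0.59 (adjusted p = 0.000114) from 24 to 48 h and by -0.37 (adjusted p = 0.0453) from 48 to 72 h. BATF lay below GFP high in 3 of 3 sets at 24 and 72 h. At 48 h it lay above in 3 of 3 sets, but by only 0.0038 on the log2 scale in set 2. The 48 h difference itself was not called (0.12, edgeR adjusted p = 0.293). FOS changed by -0.55 (adjusted p = 0.0491) from 24 to 48 h and by -0.77 (adjusted p = 0.00408) from 24 to 72 h, being above GFP high in 3 of 3 sets at 24 h and below in 3 of 3 sets at 72 h. FOSB changed by -0.44 (adjusted p = 0.0293) and JUN by -0.32 (adjusted p = 0.0409) from 24 to 48 h. JUND changed by 0.33 (adjusted p = 0.0187) from 24 to 72 h. Only the BATF call from 24 to 48 h and the FOS call from 24 to 72 h held in every alternative and with every library left out in turn. Groups of 3 libraries were not tested for a single library far from the others; the weight of each library is shown by the values without it.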

How the results depend on the processing

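Of 43 called member results, 27 were called in the same direction in every alternative run, and 16 lost the call in at least 1. Of 53 that were not called, 37 stayed so and 16 were called in some alternative. No called value changed sign; sign changes of values near 0 that were not called were not counted. Counts of called members, higher and lower, that moved by more than 1.5 times are given here, first for GFP low against GFP high. The other 157 counts lay within 1.5 times; 23 of these moved by 1 member and 4 kept the number with other members. At 24 h the block gave 2 higher (main 1), as did removing the length trend and removing length and GC trends with the block. At 48 h the block gave 1 higher (main 0), and length and GC trends with the block gave 2 lower (main 1). At 72 h (main 2 lower), DESeq2 and the length trend gave 1, and the block, length and GC trends, and both together gave 4. Among changes of the difference from 24 to 48 h (main 1 higher, 3 lower), DESeq2 gave 0 lower, no filter gave 2 higher and 0 lower, and the block, length and GC trends, and both gave 2 higher. From 48 to 72 h (main 0 higher, 1 lower), DESeq2 and the length trend gave 0 lower, no filter gave 1 higher and 0 lower, length and GC trends gave 1 higher and JUNB in place of BATF as the 1 lower, and the block, alone or with both trends, gave 1 higher and 2 lower. From 24 to 72 h the block gave 2 lower (main 1) and the length trend 0 higher (main 1). In GFP low cells, 48 against 24 h gave 0 higher with no filter and 2 with length and GC trends, with or without the block (main 1), and 72 against 48 h gave 0 lower with the length trend (main 1). In GFP high cells, 48 against 24 h gave 2 lower with no filter, the block, length and GC trends, and both (main 1). The cause of these moves was not tested. The share of all genes called in each alternative, or with a library left out, is not given here. A moved count is therefore not a result about the members.

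With 1 library left out, counts higher and lower ranged as follows: 1 to 1 and 2 to 3 at 24 h, 0 to 1 and 1 to 1 at 48 h, 0 to 0 and 0 to 2 at 72 h. For changes of the difference they were 1 to 1 and 0 to 3 (24 to 48 h), 0 to 0 and 0 to 1 (48 to 72 h), 0 to 2 and 1 to 2 (24 to 72 h). In GFP low cells they were 0 to 1 and 0 to 0 (48 against 24 h), 4 to 5 and 0 to 1 (72 against 48 h), 5 to 6 and 0 to 1 (72 against 24 h), and in GFP high cells 1 to 2 and 1 to 1, 4 to 6 and 0 to 0, 5 to 6 and 1 to 1. The median of all genes shifted by at most 0.012 on the log2 scale with DESeq2's size factors and by at most 0.033 in any alternative. FOSL1 and BATF3 were too shallow for any comparison, and FOSL2 rested on 9 to 28 counts per library.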
